A study of Mus musculus with 10 samples.

Results

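The levels of 10503 genes in control hearts at embryonic day E15.5 were set against those in control hearts of adult mice. The members are the 5 control samples among the 10 samples of a series on LARP7, a protein that binds the noncoding RNA 7SK and with it restrains the elongation kinase P-TEFb. The E15.5 group (n = 3) holds RNA of whole hearts from Larp7+/+ embryos. The adult group (n = 2) holds RNA of heart apex from Larp7f/f mice at 4 months of age, which carry floxed but not deleted Larp7 alleles and no Cre. Both groups are of the C57BL/6 strain. The other 5 samples, Larp7-/- hearts at E15.5 and Myh6Cre;Larp7f/f apex in the adult, are used only where values are set side by side. Whether the hearts of a group are from separate animals is not stated in the labels. Stage, the part of the heart taken, the floxed alleles and the table each group was deposited in cannot be told apart: every difference given here between E15.5 and the adult is a difference between all of these at once.

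The mammalian heart before birth grows by division of its cardiomyocytes, works at low oxygen and draws much of its energy from glucose and lactate. After birth cardiomyocytes leave the cell cycle, enlarge, exchange several fetal contractile proteins for adult isoforms, and turn to the oxidation of fatty acids in a dense network of mitochondria. The apex is ventricular tissue, whereas a whole heart also holds the atria, the valves and the roots of the great vessels.

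The values are per-million scores rounded to whole numbers, with the sequencing depth unknown, so no counting interval can be given. There are 15498 genes listed at E15.5 and 15989 for the adult apex, and 10503 symbols have a single row in each of the tables. Of the deposited sums these shared genes hold 94.1% to 94.5% in the E15.5 controls and 77.5% to 78.1% in the adult controls. Genes such as Myh6, Ryr2, Actn2, Mb and Pln are listed in the adult table and are not among the genes listed in both, so they are not compared. Each column was rescaled to a sum of 1000000 over the shared genes, and all values below are on that scale. A deposited value of 1 becomes 1.28 or 1.29 in the adult controls. For most genes a control and the like-numbered knockout sum to a constant (within 2), which 50 of the genes compared miss, so the spread among controls mirrors that among knockouts and may not be the spread between hearts.

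A gene was called higher in a group when its lowest value + 1 there was at least 2 times the highest value + 1 in the other group. Genes whose 2 group means averaged under 5 were left out. Of the 8385 genes that passed, 2979 (35.5%) were called higher at E15.5 and 733 (8.74%) higher in the adult. No p-value is given, since the tables were normalized separately and an exact permutation of 3 samples against 2 cannot go below 0.2 (two-sided). The log2 differences are E15.5 minus adult on log2(value + 1), with a median SD of 0.129 among E15.5 controls and 0.082 among adult controls. Samples of a stage resembled one another across the genes that passed (Pearson correlation of log2 values, across genes that are not independent replicates, 0.978 to 0.986 among E15.5 controls and 0.986 between the adult ones). Between stages it was 0.559 to 0.588. E15.5 control 3 was the lowest of its group in erythroid genes, Krt19, Slc2a1, Hk2 and Myl7, and the adult controls differed from each other in globins, collagens and Nppb. E15.5 knockout 3 was the highest knockout of its stage in Krt19, Slc2a1, Hk2 and Myl7, in mirror of control 3. Orders and ranges within a group, here and below, may therefore not be those between hearts. Without E15.5 control 3 there were 3114 and 766 called genes. The 84 and 88 calls of named genes held when any 1 sample was left out, but the call rule fixes this outcome. With fewer samples the gap between nearest values can only stay or widen, so a call can be lost only through the filter.

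The balance of the calls depends on the scaling. The median log2 difference over all 8385 genes was 0.78, and it was 1.04 on the values as deposited, 0.31 when the sums left out the top 50 genes and the mitochondrial genes, and 0.08 under median-of-ratios scaling. Of the calls 80.3% were higher at E15.5, against 52.5% in the same genes under median-of-ratios scaling (1553 of the former and 1407 of the latter direction). The 29 genes of the mitochondrial genome took 6.5%, 9.8% and 8.5% of the shared sum in E15.5 controls 1, 2 and 3, and 31.2% and 29.2% in adult controls 1 and 2. A list of genes is therefore read against the median of 0.78 and against these shares of calls, and a list whose direction turns with the scaling is named as such. The median of all genes moves as well. Lists whose median is named as turning lay below it both at 0.78 and at 0.08. List counts under median-of-ratios scaling are to be set against the 1553 and 1407 of all 8385 genes.

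**Figure D1:**
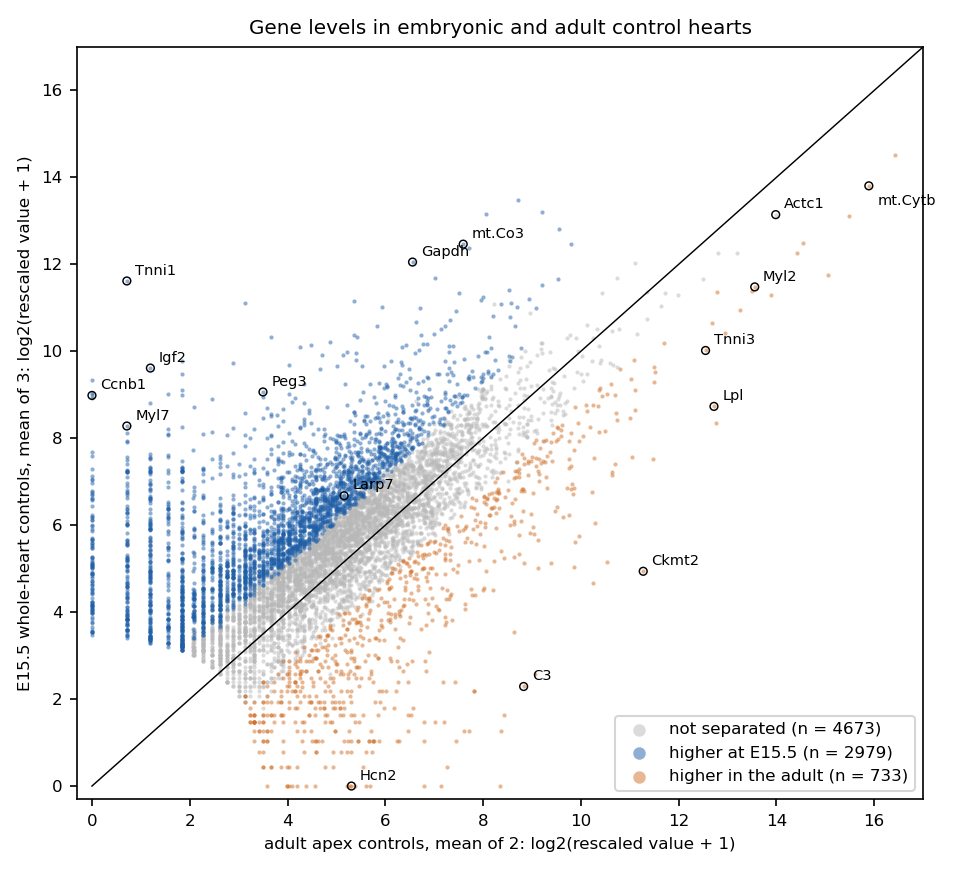
Mean level of each of the 8385 genes in the 3 E15.5 controls (vertical) against the 2 adult controls (horizontal), both as log2(rescaled value + 1), with the line of equal values. Blue genes (2979) were called higher at E15.5 and orange genes (733) higher in the adult, and named genes are circled: Tnni1, Igf2, Ccnb1 and Myl7 lie at the left edge near 0 in the adult, and Hcn2 at the lower edge, listed at 0 in the 3 E15.5 controls. Under median-of-ratios scaling 1553 and 1407 genes are called.

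Cell cycle genes were higher at E15.5 almost throughout. Of 49 replication and mitosis genes 41 were in both tables, all 41 passed the filter, 40 were called higher at E15.5 and 0 higher in the adult. Their median log2 difference was 4.71 against 0.78 over all genes, and 39 were called under median-of-ratios scaling. The member outside the call was Pttg1, securin, at 45.7, 55 and 49.8 at E15.5 and 59 and 29.6 in the adult, where the groups overlapped. Many of these genes stood at 0 or at a few units in the adult apex, where rounding sets the size of the difference, so values are given in place of folds.

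Promoters of these genes are shown because the genes differ together. Genes of the G2 and M phases are known to be controlled through CCAAT boxes and through the CHR element near the start site. The promoter sequences are from RefSeq on the build GRCm38.p6 and run from 250 bases before to 50 after the start. The 4 called genes of widest separation that hold both motifs are printed 5′ to 3′ on the gene's strand, with capitals for CCAAT and TTTGAA on either strand (ATTGG and TTCAAA are the same motifs read from the other strand). Hmmr lies at chr11:40733388-40733687 on the minus strand, Prc1 at chr7:80294201-80294500 on the plus strand, Top2a at chr11:99024140-99024439 on the minus strand and Plk1 at chr7:122159185-122159484 on the plus strand.
Hmmr: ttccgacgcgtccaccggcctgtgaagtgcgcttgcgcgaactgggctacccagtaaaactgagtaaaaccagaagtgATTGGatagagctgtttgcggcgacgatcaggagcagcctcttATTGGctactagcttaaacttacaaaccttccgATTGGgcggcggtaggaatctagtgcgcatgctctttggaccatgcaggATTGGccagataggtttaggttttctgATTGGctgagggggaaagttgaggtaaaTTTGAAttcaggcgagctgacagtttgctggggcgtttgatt
Prc1: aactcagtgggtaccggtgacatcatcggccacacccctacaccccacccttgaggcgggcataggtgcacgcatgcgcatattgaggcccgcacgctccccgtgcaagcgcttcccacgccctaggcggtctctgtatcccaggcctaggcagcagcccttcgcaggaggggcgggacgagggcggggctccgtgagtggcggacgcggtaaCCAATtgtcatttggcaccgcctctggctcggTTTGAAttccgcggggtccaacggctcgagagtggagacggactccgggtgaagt
Top2a: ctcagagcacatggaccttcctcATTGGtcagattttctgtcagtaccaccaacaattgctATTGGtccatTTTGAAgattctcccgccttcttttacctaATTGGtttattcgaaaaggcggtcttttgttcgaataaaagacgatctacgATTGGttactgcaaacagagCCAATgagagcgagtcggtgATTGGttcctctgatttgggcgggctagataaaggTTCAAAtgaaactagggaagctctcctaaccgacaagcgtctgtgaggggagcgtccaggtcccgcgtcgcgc
Plk1: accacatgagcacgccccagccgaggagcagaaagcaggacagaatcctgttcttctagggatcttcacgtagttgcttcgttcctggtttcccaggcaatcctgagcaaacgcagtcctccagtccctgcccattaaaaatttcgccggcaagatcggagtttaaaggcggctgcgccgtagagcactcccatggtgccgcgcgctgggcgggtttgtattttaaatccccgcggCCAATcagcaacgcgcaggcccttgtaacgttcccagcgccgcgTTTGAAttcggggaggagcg

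Of 36 promoters that matched 33 called members, 27 (75.0%) held CCAAT and 16 (44.4%) held TTTGAA on either strand, and all 16 of the latter held both. Among all 32851 RefSeq promoters used, 37.4% held CCAAT, 17.9% TTTGAA and 6.95% both. Among 24 promoters of 18 fatty acid genes called higher in the adult the shares were 41.7%, 8.33% and 8.33%. A match gives the letters only and does not show that a factor binds there.

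Ccnb1, cyclin B1, which drives entry into mitosis, was at 574.6, 412.9 and 529.6 in E15.5 controls 1 to 3 and listed at 0 in both adult controls. Part of its transcript is not unique: 42.2% of its 50-base stretches also occur in transcripts of other genes. Hmmr, a spindle-associated hyaluronan receptor, was at 158.3, 124.9 and 134.5 against 0 and 0, and Birc5, survivin of the chromosomal passenger complex, at 124.3, 128.1 and 120.7 against 0 and 0. Rrm2, the ribonucleotide reductase subunit that makes deoxynucleotides for replication, was at 608.6, 462.6 and 570.9 against 2.56 and 2.58. Fam83d, a spindle protein outside the list and among the 10 named genes of widest separation, was at 237.9, 166.2 and 206.5 and listed at 0 in both adult controls. For these 5 genes every E15.5 value stood far above both adult values, and E15.5 control 2 was the lowest of its group in all but Birc5.

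Regulators of entry into the cycle were less uniform. Of 15 cyclin and inhibitor genes that passed, 10 were called higher at E15.5 (66.7%, against 35.5% over all genes). In the adult 1 was called higher (6.67%, against 8.74%). Ccnd3, a D-type cyclin, was at 896.5, 804.5 and 939.5 against 64.1 and 72.2 (log2 difference 3.67). Its partner kinase Cdk4 was at 607.6, 593.9 and 606.9 against 62.8 and 64.5 (log2 difference 3.22). Both stood in a narrow range within each stage, with wide gaps between the stages. Ccng1, a cyclin induced by p53, was the member called higher in the adult, at 312.3, 285.8 and 319.9 against 1266.2 and 1064.8 (log2 difference -1.92). The retinoblastoma gene Rb1 was alike at both stages, at 25.5, 30.7 and 25.4 against 29.5 and 27.1, with overlapping groups, while its relative Rbl1 was at 46.7, 38.1 and 44.5 against 3.84 and 5.16. The inhibitor Cdkn1b was at 85, 83.6 and 51.9 against 70.5 and 70.9.

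Imprinted growth genes, which are expressed from a single parental copy and regulate fetal growth, were called higher at E15.5 in 13 of 13 measured members of 23 listed, with a median log2 difference of 4.03 (12 under median-of-ratios scaling). Igf2, the fetal insulin-like growth factor on chromosome 7 (minus strand, 142650766 to 142666816 in mm10), was at 728.7, 870.2 and 749.9 at E15.5 and 0 and 2.58 in the adult. It shares 75.9% of its 50-base stretches with transcripts under another gene name. Mest, a hydrolase-like gene expressed from the paternal copy (chromosome 6, plus strand, 30723547 to 30748465), was at 2527, 1855.7 and 2202.1 against 6.41 and 9.02 and shares 0% of such stretches. Plagl1, a zinc finger factor, was at 782.8, 859.6 and 908.8 against 7.69 and 5.16. Dlk1, a Notch-like ligand, was at 156.1, 171.5 and 118.6 against 1.28 and 0. None of the 13 had groups within 2-fold of each other, and the smallest log2 difference was 1.43.

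Chromatin and signaling genes of the fetus went the same way in part. Of 9 fetal RNA-binding and chromatin genes that passed (11 of 22 were in both tables), 8 were called higher at E15.5, with a median of 4.72. Ezh2, the histone methyltransferase of Polycomb repression, was at 168.9, 160.9 and 154.6 against 5.13 and 5.16, and Sox4, a developmental transcription factor, at 376, 372.6 and 373.9 against 10.3 and 12.9. Of 24 genes of Wnt, Notch, BMP, Hedgehog and retinoid signaling that passed, 9 were called higher at E15.5 (37.5% of the list, near the 35.5% over all genes). Among them Bmp10, a ligand of trabecular and atrial myocardium, was at 150.8, 151.4 and 90 and listed at 0 in both adult controls. Bmp7 was at 133.8, 156.7 and 146.2 against 2.56 and 1.29. Erbb2, the coreceptor for neuregulin, which sustains cardiomyocyte division before birth, was at 107.3, 121.7 and 122.9 against 10.3 and 12.9 (log2 difference 3.24). Sfrp1, a secreted Wnt antagonist, was at 420.6, 422.4 and 419.4 against 21.8 and 32.2. The receptor Notch1, at 82.9, 97.4 and 89 against 50 and 54.1, was not called. Of 9 genes of serine and one-carbon synthesis 7 were called higher at E15.5, with Psat1, an enzyme of serine synthesis, at 157.2, 139.7 and 171.6 against 3.84 and 3.87. Under median-of-ratios scaling 5 of these 9 were called.

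Contractile genes differed by isoform. Of 6 fetal contractile genes that passed, 4 were called higher at E15.5 and 0 higher in the adult. Of 20 sarcomere genes, 11 were called higher in the adult and 0 at E15.5, with a median log2 difference of -1.47 that was negative under all 4 scalings. Tnni1, slow skeletal troponin I, the inhibitory troponin of the fetal heart (chromosome 1, plus strand, 135779434 to 135810989), was at 3123.9, 3250.9 and 3051.5 at E15.5 and at 0 and 1.29 in the adult. As a ratio of its lowest E15.5 to its highest adult value, with 1 added to each, it had the widest separation of the 10503 genes, and the size of that ratio rests on the 1 added. Tnni3, the cardiac troponin I that replaces it (chromosome 7, minus strand, 4518305 to 4524229), was at 956, 1040.6 and 1113.2 against 5854.1 and 6148.8 (log2 difference -2.54). Each sample thus lay on the side of its stage for both genes, with the 3 E15.5 samples within a narrow range.

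The light chains of myosin behaved likewise. Myl4, the essential light chain of atrial and embryonic muscle, was at 907.1, 921 and 792.3 against 1.28 and 3.87, while Myl3, its ventricular counterpart, was at 2320.9, 2473.9 and 3068.5 against 6980.6 and 7158.1. Myl7, the atrial regulatory light chain, was at 384.5, 380 and 166.3 against 1.28 and 0, and Myl2, the ventricular one, at 2366.6, 2589.3 and 3617.1 against 12067 and 12038.5. In E15.5 control 3 Myl7 was lowest and Myl2 highest of the 3. Xirp2, a protein of the intercalated disc, was at 4.25, 4.23 and 6.36 against 360.1 and 703.8. Myoz2, a Z-disc protein that binds calcineurin, was at 133.8, 140.8 and 152.5 against 1563.5 and 1604.9. Tcap, which caps titin at the Z-disc, was at 133.8, 163 and 148.3 against 1722.4 and 1445. The structural proteins Ttn, Mybpc3, Actc1 and Tnnt2 were not called: cardiac actin Actc1 was at 8374.3, 9524.2 and 9254.1 against 16050.1 and 16409.7, within 2-fold. Acta1, skeletal actin, overlapped between the stages, with 222, 224.4 and 150.4 against 87.1 and 314.5, and its 2 adult values lay farther apart than the stage means.

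Atrial markers differed along with these isoforms. Of the 8 atrial genes in both tables (of 9 listed) 5 were called higher at E15.5, namely Nppa, Myl7, Myl4, Bmp10 and Dkk3, with summed values of 2305.9 to 2666.6 at E15.5 and 256.5 to 543.4 in the adult. Since a whole heart holds atria and the apex does not, the part of tissue sampling in Myl4, Myl7, Bmp10 and Nppa cannot be told apart from stage. Tnni1 is not an atrial gene of this list. The atrial markers Tbx5 (53.1, 54 and 35 against 46.1 and 41.2) and Stard10 (28.7, 32.8 and 19.1 against 48.7 and 46.4) were not called.

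**Figure D2:**
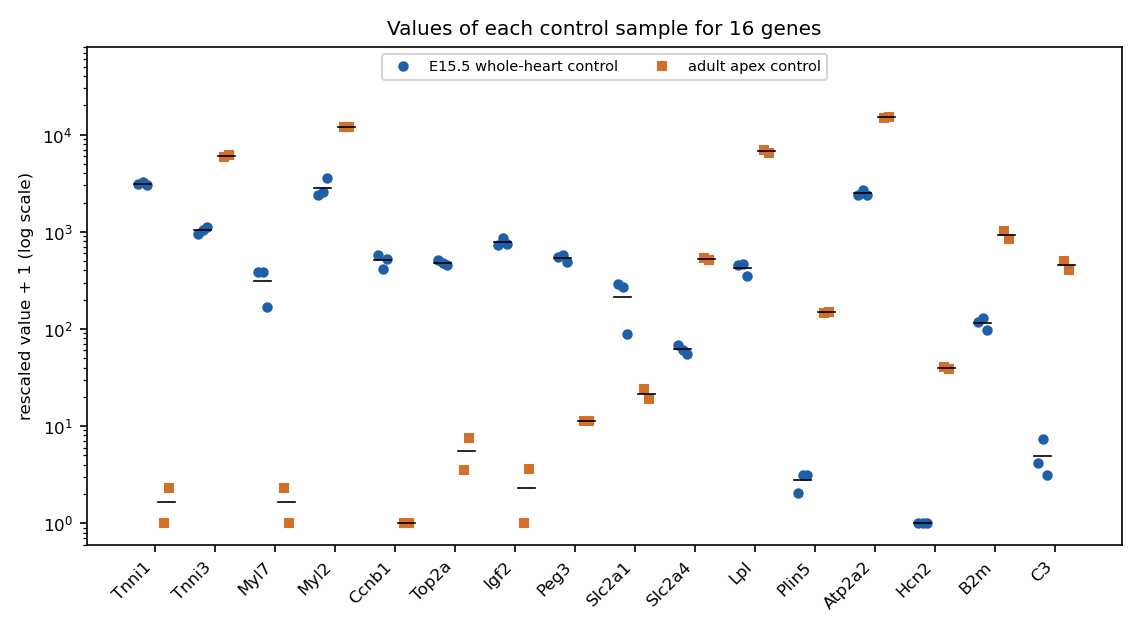
Value + 1 of 16 genes in each E15.5 control (blue circles) and each adult control (orange squares) on a log axis, with a bar at the mean of each group. Tnni1, Myl7, Ccnb1, Top2a, Igf2, Peg3 and Slc2a1 lie higher in all 3 E15.5 samples, and the other 9 genes lie higher in both adult samples; E15.5 control 3 stands below the others of its group in Myl7 and Slc2a1.

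Ratios between related genes within a sample do not depend on the scaling of that sample, apart from the 1 added to each value. Of 25 listed pairs of a fetal or general gene and its adult or muscle counterpart, 15 had both genes in both tables, and in 12 the ratios of the stages lay at least 2-fold apart. The first gene of the pair took the larger part at E15.5 in 11 of these, and in 1 (Ldhb to Ldha) in the adult. That pair is listed the other way round, with the heart chain first, so its direction is no exception to the others. Of the 12, 4 include a gene with at least 20% of shared 50-base stretches, and 1 (Ckmt1 to Ckmt2) includes a gene under a mean of 5 at both stages, whose value does not inform the ratio. The other 7 pairs are free of both limits. The share of separated ratios among pairs of other genes was not computed, so the 12 are a description without a background. Of all 8385 genes the groups overlapped in 10.4%, and the pairs were chosen and ordered with earlier results known.

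The log2 ratio of Tnni1 to Tnni3 was 1.71, 1.64 and 1.45 at E15.5 and -12.52 and -11.39 in the adult, where the numerator was near 0 and the size rests on the 1 added. Cox6a1 to Cox6a2, the general and the heart and muscle forms of a cytochrome oxidase subunit, had ratios of 0.67, 0.69 and 1.0 against -4.33 and -4.1. Slc2a1 to Slc2a4, the basal and the insulin-responsive glucose transporters, had ratios of 2.07, 2.13 and 0.68 against -4.47 and -4.75. These pairs separated the stages in every sample. Slc16a3 to Slc16a1, the lactate exporter of glycolytic cells and the general monocarboxylate transporter, had ratios of 0.05, -0.25 and -0.49 against -5.67 and -5.61. Hk1 to Hk2, the hexokinases of glucose entry, was the narrowest of the 12, at 0.43, 0.61 and 1.99 against -1.0 and -0.6, with nearest values 2.05-fold apart. Ldhb to Ldha, the heart and muscle chains of lactate dehydrogenase, had ratios of -1.3, -1.12 and -1.15 against 1.13 and 1.08, with 26.7% of Ldhb stretches shared. The other 3 pairs did not reach 2-fold: Acta1 to Actc1, whose ratios overlapped, Cox4i2 to Cox4i1 and Atp5g1 to Atp5g3.

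**Figure D3:**
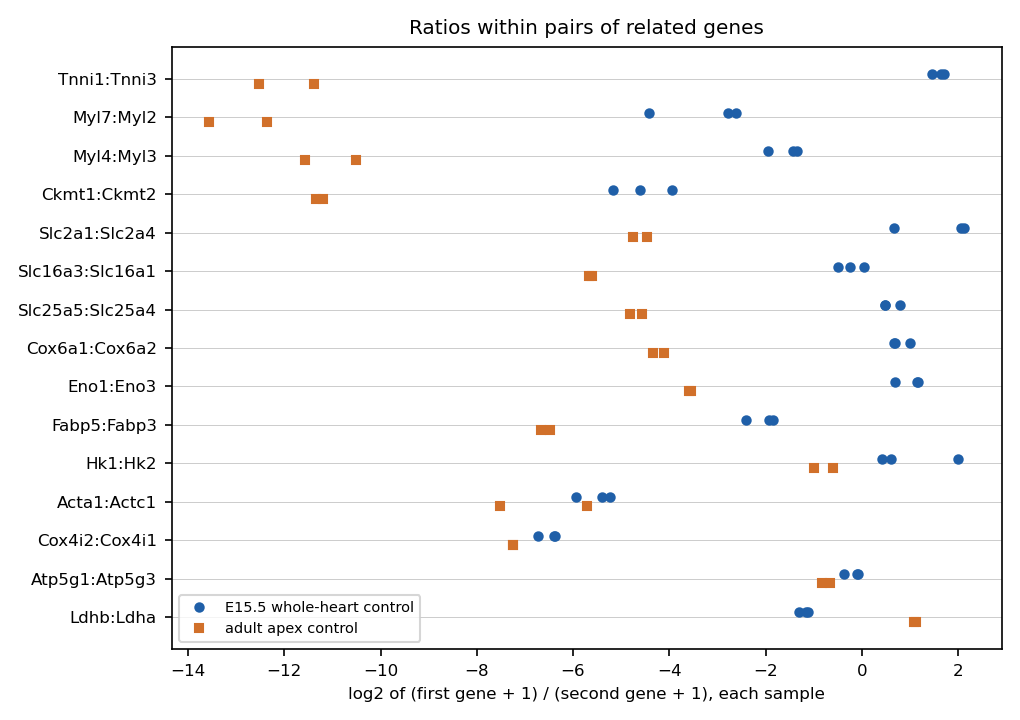
Log2 ratio of the first to the second gene of each of 15 pairs in each E15.5 control (blue circles) and each adult control (orange squares), ordered by the difference between stages. The points of the stages lie at least 2-fold apart in 12 pairs, and overlap in Acta1 to Actc1. Ldhb to Ldha, listed with the heart chain first, is the pair with the larger ratio in the adult.

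Fuel use separated the stages mainly on the side of fat. Of 32 genes of fatty acid uptake and oxidation that passed (of 38 listed), 22 were called higher in the adult (68.8%, against 8.74% of all genes) and 2 at E15.5. Their median log2 difference was -1.67 (-2.39 under median-of-ratios scaling, with 26 called). Lpl, the lipase that frees fatty acids from lipoproteins at the vessel wall, was at 458.9, 463.7 and 350.6 against 6981.9 and 6542 (log2 difference -4.00). Plin5, the lipid droplet coat of oxidative tissue, was at 1.06, 2.12 and 2.12 against 146.1 and 147. Dgat2, which makes triglyceride, was at 32.9, 32.8 and 27.5 against 592.1 and 524.6 (log2 difference -4.13). Ucp3, a mitochondrial carrier of muscle, was listed at 0 in the 3 E15.5 controls and at 35.9 and 40 in the adult. The adult values of these 4 genes differed from each other far less than from any E15.5 value. Acadvl, the first enzyme of very long chain oxidation, was at 322.9, 230.8 and 309.3 against 539.5 and 515.6 and was not called.

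Both fatty acid genes called higher at E15.5, Cpt1b and Acot2, have transcripts that overlap those of other genes. Cpt1b, the muscle carnitine palmitoyltransferase, was at 232.6, 144 and 218.2 against an adult mean of 16.1 ± 0.84 (SD, n = 2) and shares 93% of its stretches. Acot2, a mitochondrial thioesterase, was at 186.9, 194.8 and 171.6 against 71.8 and 72.2 and shares 27.4%. Among the 28 members with less than 20% shared, 21 were called higher in the adult and 0 at E15.5. The part of shared sequence in the 2 values was not tested. Fabp4, a fatty acid carrier of capillary endothelium and fat cells, was at 108.3, 108 and 123.9 against 968.8 and 822.4. It is the single fat cell marker of 9 that is in both tables, so the part of fat tissue in that value was not tested.

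Genes of glucose use went both ways. Of 17 that passed, 6 were called higher at E15.5 (35.3%, near the 35.5% over all genes). In the adult 4 were called higher (23.5%, against 8.74%). Their median of 0.11 turned to -0.61 under median-of-ratios scaling. Slc2a1 was at 288.9, 267.8 and 86.9 against 23.1 and 18, and Slc2a4 at 68, 60.3 and 54 against 530.6 and 513. E15.5 control 3 was the lowest of its group in Slc2a1, and was again in Hk2 (288.9, 254.1 and 98.5 against 435.7 and 403.5). Slc16a3 was at 246.4, 192.7 and 139.8 against 5.13 and 5.16. Ldha was at 3506.3, 2928.1 and 3234.8 against 731.8 and 747.7 (log2 difference 2.12) while Ldhb was level, at 1426.5, 1346.5 and 1453.2 against 1598.1 and 1580.4. Eno3, the muscle enolase, was at 806.2, 681.7 and 815.6 against 1704.5 and 1840.8 (log2 difference -1.21). Gapdh, Pgk1 and Eno1 were called higher at E15.5 but share 27.2%, 67.7% and 72% of their stretches with other genes, and of the 12 genes below 20% the split was 3 and 3. Among 16 genes of the tricarboxylic acid cycle and pyruvate dehydrogenase 3 were called higher in the adult (18.8%, against 8.74% over all genes). At E15.5 0 were called higher, against 35.5%. Under median-of-ratios scaling 8 were called higher in the adult, and 6 when the sums left out the top genes. Idh2 was at 2603.4, 2517.3 and 2836.5 against 2716.9 and 2516.2.

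Nuclear genes of the respiratory chain were called higher in the adult in part, and members of the same complex differed in the size of the step. Of 25 complex I genes 14 were called higher in the adult and 0 at E15.5 (median -1.31). Of 31 genes of complexes III to V it was 15 and 1 (median -1.12), with 25 higher in the adult under median-of-ratios scaling and 23 when the sums left out the top genes. Both medians were negative under all 4 scalings. Ndufa4, at 265.5, 297.5 and 297.6 against 1404.6 and 1492.7 (log2 difference -2.33), and Ndufa3, at 72.2, 78.3 and 86.9 against 435.7 and 464.1, had the 2 largest log2 differences of complex I. Ndufb8 was at 552.3, 630.9 and 498.9 against 579.3 and 612.3 and overlapped. The muscle forms of cytochrome oxidase had the 3 largest log2 differences of complexes III to V. Cox8b was at 28.7, 29.6 and 37.1 against 949.6 and 919.1 (log2 difference -4.84), Cox7a1 at 44.6, 49.8 and 48.7 against 938.1 and 951.3 (-4.28), and Cox6a2 at 182.7, 191.6 and 177.9 against 2810.4 and 2852.7 (-3.94). Their values left wide gaps between the stages, while the general form Cox6a1 was at 291, 310.2 and 358 against 138.4 and 165. Cycs, cytochrome c, was the member called higher at E15.5 and shares 28.5% of its stretches.

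Creatine phosphate carries energy from mitochondria to the contractile filaments. Ckmt2, the sarcomeric mitochondrial creatine kinase, was at 30.8, 23.3 and 35 against 2358 and 2600 (log2 difference -6.35), whereas the cytosolic Ckm was at 789.2, 753.7 and 904.5 against 1699.3 and 1546.9 and was not called. Slc25a4, the adenine nucleotide carrier of heart, was at 1474.3, 1567.8 and 1791.1 against 6517.9 and 6587.1 (log2 difference -2.03). Oxct1, which starts the use of ketone bodies, was at 538.5, 501.8 and 511.6 against 1457.1 and 1496.6. The 3 members higher at E15.5 were Gatm, Gamt and Slc25a5. Gatm was at 18.1, 16.9 and 21.2 against 6.41 and 5.16, and Gamt at 19.1, 19.1 and 25.4 against 7.69 and 7.73. Slc25a5 was at 2555.6, 2202.9 and 2497.6 against 230.7 and 275.9, with 46.9% of stretches shared. Among 16 regulators of mitochondrial maturation 3 were called higher in the adult (18.8%, against 8.74% over all genes). At E15.5 1 was called higher (6.25%, against 35.5%). The list median of 0.51 turned to -0.21 under median-of-ratios scaling. Ppargc1a, the coactivator of mitochondrial biogenesis, was at 228.4, 207.5 and 155.7 against 138.4 and 141.8. Rxrg, a retinoid X receptor, was at 0, 2.12 and 2.12 against 84.6 and 90.2, and Klf15, a factor of metabolic rhythm in heart, at 23.4, 29.6 and 27.5 against 78.2 and 78.6.

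The genes of the mitochondrial genome did not differ in 1 direction. Of 13, 7 were called higher in the adult (53.8%, against 8.74% over all genes). At E15.5 4 were called higher (30.8%, near the 35.5% over all genes). All 13 are copied from the same circular chromosome. mt.Cytb was at 12684.7, 16103.3 and 14188.9 against 61552.7 and 60006.9 (log2 difference -2.09) and mt.Nd1 at 7605.3, 8893.2 and 9861.1 against 46784.2 and 45181.4 (-2.40). mt.Co3 was at 5219.6, 6653.3 and 5087.3 against 173 and 211.4 (4.87), and mt.Atp6 at 9263.4, 11034.8 and 7916.4 against 730.5 and 448.6 (4.02). Both genes of the latter kind, and mt.Co2, which was also called higher at E15.5, lie at 99.2% to 100% of shared stretches, against 0% for mt.Cytb and mt.Nd1. Shared sequence did not go with 1 direction: of the 7 genes at 20% or more, mt.Nd4 (62.4%, log2 difference -2.08) and mt.Co1 (51.3%, -2.0) were called higher in the adult, and mt.Nd3 (98.3%) and mt.Nd4l (98.0%) were not called. mt.Atp8, the fourth gene higher at E15.5, was at 1277.8, 1482 and 1069.8 against 10.3 and 12.9 and shares 0%; it overlaps mt.Atp6 in the mitochondrial genome.

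The same measure was therefore taken for every gene with a transcript in the annotation: the percent of 50-base stretches of its longest transcript that also occur in transcripts of other gene names. Of the 5358 genes that passed the filter and share 0%, 31.5% were called higher at E15.5 and 9.46% higher in the adult. Of the 337 that share 50% or more it was 62.9% and 8.01%, and the median log2 difference was 0.67 in the first and 2.04 in the second group. Rows of pseudogenes took 3.85% to 4.95% of the deposited E15.5 controls and 0.68% to 0.71% of the adult controls. Counts of genes with near-identical copies, such as Gapdh (4243.4, 4755.2 and 3746.4 against 88.4 and 98), are therefore uncertain between the tables, and the counting of reads that fit several genes was not given in the sources used here. How far shared sequence enters the differences was not tested. Without the genes that share at least 20%, 2601 and 673 genes were called.

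**Figure D4:**
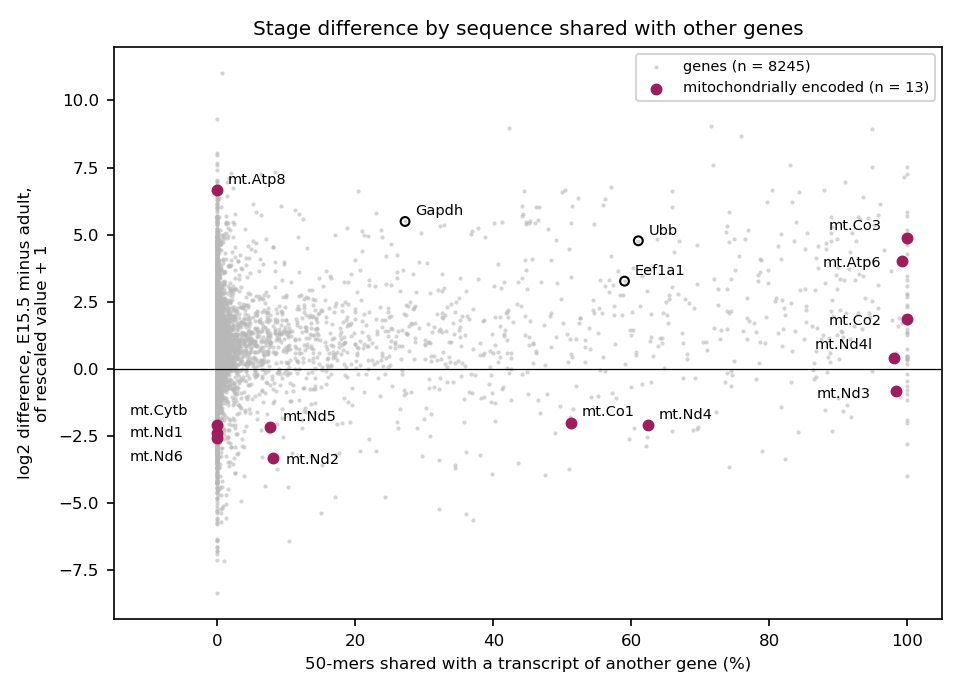
Log2 difference of each of 8245 genes (grey) against the percent of its 50-base stretches shared with transcripts of other genes, with the 13 mitochondrially encoded genes in purple and Gapdh, Ubb and Eef1a1 circled. Mitochondrial genes at 98% to 100% of shared stretches lie between -0.84 and 4.87, mt.Nd4 and mt.Co1 at 62.4% and 51.3% lie at -2.08 and -2.0, and those under 10% lie below -2 except mt.Atp8 at 6.66.

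Calcium and electrical genes were mixed. Of 17 calcium cycling genes 4 were called higher in the adult (23.5%, against 8.74% over all genes). At E15.5 3 were called higher (17.6%, against 35.5%). Their median of 0.06 turned to -0.67 under median-of-ratios scaling. Atp2a2, the pump that refills the sarcoplasmic reticulum, was at 2383.6, 2696.2 and 2402.2 against 15023.6 and 15387.5 (log2 difference -2.61). Hrc, a calcium-binding protein of that store, was at 113.7, 104.8 and 105.9 against 1209.8 and 1191.1 (-3.46). Casq1, the skeletal calsequestrin, was higher at E15.5, at 175.3, 135.5 and 134.5 against 8.97 and 21.9, while the cardiac Casq2 overlapped, at 1042, 899.8 and 1120.6 against 925.3 and 1031.2. Cacna1h, a T-type calcium channel, was at 86, 86.8 and 46.6 against 11.5 and 11.6.

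Of 21 ion channel and connexin genes that passed, 11 were called higher in the adult and 3 at E15.5, with a median of -1.45 that was negative under all 4 scalings. Kcnip2, the subunit that sets the transient outward current of ventricle, was at 20.2, 21.2 and 23.3 against 293.5 and 296.5 (log2 difference -3.72). Hcn2, a pacemaker channel, was listed at 0 in the 3 E15.5 controls and at 39.7 and 37.4 in the adult. The connexins Gja5 (148.7, 141.9 and 216.1 against 6.41 and 7.73, with 21.0% of stretches shared) and Gjc1 (111.5, 111.2 and 117.6 against 20.5 and 24.5), of atrium and conduction system, were higher at E15.5. Shox2, a sinus node factor, was at 9.56, 21.2 and 13.8 and listed at 0 in both adult controls. The conduction list as a whole had 3 of 5 members called, with sums of 321.8 to 398.3 at E15.5 and 65.4 to 79.9 in the adult, and tissue sampling and stage cannot be told apart there. Of 20 cardiac transcription factors 4 were called higher at E15.5 (20.0%, against 35.5% over all genes). In the adult 0 were called higher, against 8.74% over all genes. Their median of 0.44 turned to -0.27 under median-of-ratios scaling. Myocd, a coactivator of muscle genes, was at 241.1, 185.3 and 216.1 against 41 and 55.4, and Tbx5 and Hand2 overlapped or lay within 2-fold.

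Collagens were higher at E15.5 in 11 of 17 members, while other matrix genes went both ways. Of 17 collagens that passed, 11 were called higher at E15.5 and 0 lower, with a median of 2.63 (9 under median-of-ratios scaling). Col1a1, the main fibrillar collagen, was at 1288.4, 1279.8 and 803.9 against 32 and 137.9. Col3a1 was at 1702.7, 1754.1 and 1594.1 against 50 and 268.1. Col12a1 was at 43.5, 50.8 and 42.4 against 0 and 2.58. The 2 adult controls differ several-fold in these genes, with control 2 the higher, and both stay under every E15.5 value. The basement membrane chain Col4a1, at 894.4, 903 and 890.8 against 285.8 and 449.9, and Col6a1 were not called. Of 23 other matrix genes 9 were called higher at E15.5 (39.1%, near the 35.5% over all genes) and 5 lower (21.7%, against 8.74%). Vcan, versican of the cushions and early matrix, was at 312.3, 304.9 and 294.5 against 17.9 and 18. Eln, elastin of the great vessels, was at 670.2, 639.4 and 508.4 against 32 and 38.7. Timp4, an inhibitor of matrix proteases in heart, was on the other side, at 1.06 in each E15.5 control against 44.9 and 60.6, and Mgp, which inhibits calcification, was at 69, 70.9 and 53 against 405 and 384.1.

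Immune genes were higher in the adult. Of 14 genes of antigen presentation and interferon response 9 were called higher in the adult and 0 at E15.5 (median -2.32), and of 9 complement genes 8 and 0 (median -2.13), both negative under all 4 scalings. B2m, the light chain of class I molecules, was at 117.9, 129.1 and 95.3 against 1016.3 and 845.6 (log2 difference -3.02). H2.D1, a class I heavy chain, was at 47.8, 58.2 and 58.3 against 553.6 and 497.6 (-3.24). C3, the central complement protein, was at 3.19, 6.35 and 2.12 against 504.9 and 403.5. Ly6a, a surface marker of progenitor and endothelial cells, was at 1.06 in each E15.5 control against 171.7 and 175.3. Macrophage markers differed along with these genes: 6 passed, 5 were called higher in the adult, and they summed to 103.8 to 121.7 at E15.5 and 504.9 to 506.6 in the adult. The C1q chains stand in both lists. In RNA of whole tissue fewer cells of a type and less RNA per cell cannot be told apart, and the part of macrophages in the immune values was not tested.

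Markers of the cell types behind these lists differed as follows. Of the 7 cardiomyocyte markers 3 (Tnnt2, Ttn and Mybpc3) are in both tables, and they summed to 9569.3 to 10622.6 at E15.5 and 15936 to 17718.1 in the adult, with 0 called in either direction (2 higher in the adult under median-of-ratios scaling). These muscle markers were thus abundant in both groups. Of 7 endothelial markers 0 were called, with sums of 1166.6 to 1288.4 and 982.3 to 1024, and their median log2 difference of 0.20 turned to -0.52 under median-of-ratios scaling and to -0.29 when the sums left out the top genes. Of 6 fibroblast markers that passed, Col1a1 and Col3a1 were called higher at E15.5 (33.3%, near the 35.5% over all genes). Gsn was called higher in the adult (16.7%, against 8.74%), and the receptor Pdgfra was at 75.4, 76.2 and 73.1 against 56.4 and 65.7. Epicardial markers had 3 of 5 called higher at E15.5, with sums of 173.7 to 286.8 against 20.6 to 60.2. Of 10 smooth muscle and pericyte markers 4 (Rgs5, Abcc9, Kcnj8 and Pdgfrb) are in both tables. The smooth muscle contractile markers Myh11, Cnn1, Acta2 and Tagln are not, so smooth muscle itself was not compared. Of the 4, Rgs5 and Abcc9 were called higher in the adult, with sums over the 4 of 337.9 to 393 against 1350.9 to 1354.6. Rgs5, a pericyte regulator of G proteins, was at 88.2, 80.5 and 84.7 against 751 and 710.3. Of 7 erythroid markers 2 were called higher at E15.5 (28.6%, against 35.5% over all genes). Their sums ranged from 3189.2 to 8053.8 at E15.5 and from 166.3 to 1904.4 in the adult, with E15.5 control 3 lowest of its stage, and adult controls 1 and 2 at 589.5 and 7.73 for Hba.a1. The part of blood in other values was not tested. No marker of these lists in both tables was at 0 in all 5 samples.

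**Figure D5:**
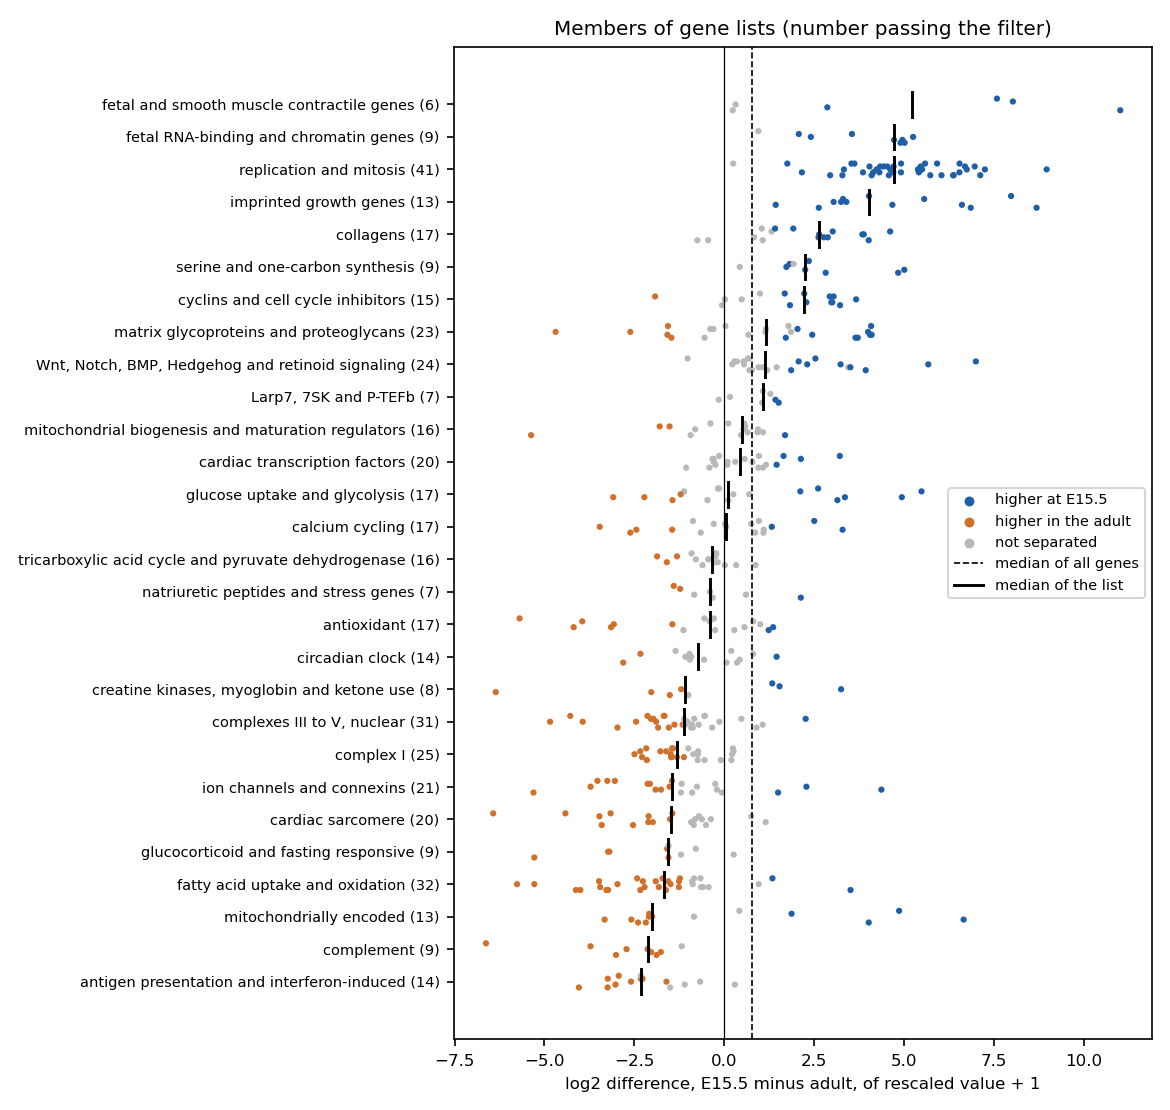
Log2 difference (E15.5 minus adult) of the members of 28 gene lists that passed the filter, 1 point a gene, coloured by call, with the list median as a black bar, the median of all genes (0.78) as a dashed line and 0 as a solid line. Replication and mitosis, imprinted and fetal contractile genes lie to the right, and fatty acid, sarcomere, complement and antigen presentation genes to the left. The medians of glycolysis, calcium cycling, cardiac transcription factors and mitochondrial regulators change sign under median-of-ratios scaling. The median of all genes falls to 0.08 there, and these lists lie below it under both scalings.

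The 10 named genes of widest separation in the adult direction include muscle genes outside the lists. Tuba8, a tubulin of muscle and other tissues, was listed at 0 in the 3 E15.5 controls and at 297.3 and 355.8 in the adult. Rpl3l, a muscle form of ribosomal protein L3, was at 1.06, 1.06 and 2.12 against 331.9 and 326.1. Trim72, a membrane repair protein of striated muscle, was at 2.12 in each E15.5 control against 322.9 and 360.9. Myh14, a nonmuscle myosin, was at 0, 1.06 and 0 against 153.8 and 150.8. Each of these was near or at 0 at E15.5 and steady between the adult controls. Ces1d, Slc25a34, Asb15 and Art1 ranged from 0 to 2.12 at E15.5 and from 102.5 to 228.1 in the adult. Among the 10 in the E15.5 direction, Tmem254c and Ube2v1 share 100% and 83% of their stretches with other genes.

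Stress peptides did not order the stages in a simple way. Nppa, the atrial natriuretic peptide, was at 934.7, 1000.4 and 1114.3 at E15.5 and at 411.4 and 128.9 in the adult (log2 difference 2.13), and its call was lost under median-of-ratios scaling. Nppb, the B-type peptide, was at 126.4, 124.9 and 132.4 against 651 and 79.9, so that the 3 E15.5 values lay between the 2 adult ones. Adult control 1 was the higher in both peptides and the lower in Col1a1, Col3a1 and Acta1. Adult knockouts 1 and 2 had the reverse order in all of these, with Nppb at 1079.9 and 1645.6. By the constant sums of like-numbered samples, these adult spreads may not be spreads between hearts. Of 14 clock genes 2 were called higher in the adult (14.3%) and 1 at E15.5, and of 9 glucocorticoid and fasting genes 5 (55.6%, against 8.74% of all genes) and 0. Both counts depend on the scaling: under median-of-ratios scaling 8 clock genes and 8 glucocorticoid and fasting genes were called higher in the adult and 0 at E15.5. Over all 8385 genes that scaling called 1407 higher in the adult, against 733. Time of sampling and feeding state were not given in the sources used here. Of 17 antioxidant genes 6 were called higher in the adult (35.3%, against 8.74% over all genes). At E15.5 2 were called higher (11.8%, against 35.5%). Gsta3, a glutathione transferase, was listed at 0 in the 3 E15.5 controls and at 53.8 and 47.7 in the adult.

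Larp7 itself was called higher at E15.5. It was at 102, 93.2 and 109.1 in the E15.5 controls and at 33.3 and 36.1 in the adult controls (log2 difference 1.52). The gene lies on chromosome 3, minus strand, 127536714 to 127553349. Its groups did not overlap, and of all 8385 genes 67.8% lay without overlap in the same direction. Under median-of-ratios scaling neither Larp7 nor any of the other 6 members of its list that passed was called. Its partners in P-TEFb regulation differed less: Hexim1, the inhibitor of the kinase, was at 42.5, 45.5 and 25.4 against 35.9 and 46.4, Mepce, the 7SK capping enzyme, at 45.7, 52.9 and 44.5 against 41 and 43.8, and the kinase Cdk9 at 47.8, 74.1 and 74.1 against 25.6 and 25.8. Aff4, a scaffold of the elongation complex, was the other member called higher at E15.5. Hexim2 and Rn7sk, the 7SK RNA, did not reach the filter.

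The knockout samples of the same tables share these controls by construction, and their values are set beside the controls without a test. In Larp7-/- hearts at E15.5 Larp7 was at 47.9, 57.5 and 42.5, above both adult controls on this scaling. That order between the tables was not examined under the other scalings. In Myh6Cre;Larp7f/f apex Larp7 was at 33.8 and 31, which overlapped the adult controls at 33.3 and 36.1. Cre acts there in cardiomyocytes, and the part of other cells in these values was not tested. Tnni1 was at 2347.9, 2213.1 and 2411.1 in the E15.5 knockouts and at 1.3 and 1.29 in the adult knockouts, so each stage kept to its own range. Mest was at 3865.3, 4541.4 and 4186.1 against 11.7 and 10.3. Rpl3l was at 1.06, 1.07 and 1.06 in the E15.5 knockouts and at 201.7 and 206.7 in the adult knockouts, below both adult controls and far above every E15.5 sample. Nppa was at 1969.3, 1904.1 and 1787.8 in the E15.5 knockouts and 1547 and 1820 in the adult ones, where the stages overlap on this scaling.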

How the data were processed

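Total RNA from flash-frozen mouse heart was isolated with a column kit and DNase and sequenced by Illumina, per the labels' protocols. HISAT2, HTSeq and build mm10 are named without versions, per the submitters' processing notes. The authors deposited a score per gene and sample, a per-million value rounded to whole numbers. Which of TPM or CPM it is was not given in the sources used here, and depth is unknown. Controls of both tables were joined by exact symbol, rescaled, filtered and called by the rules in the report with Python 3.11.15, numpy 2.4.6 and pandas 2.3.3 (pseudocount 1). The script was tested on simulated data. Named genes are the 10 of widest separation per direction with a higher mean of at least 50 (unnamed models left out), up to 4 called members per direction and 3 others of each list, all pair members and the Larp7 list. Peg3, Top2a, Prc1, Plk1, Ubb, Eef1a1, mt.Nd4 and mt.Co1 fall outside it and were chosen after their values were seen. The members, lists and rules were chosen with earlier results of these data known. Shared sequence was measured after seeing the data, on the GENCODE vM21 transcripts (50-base stretches every 5 bases, same strand, threshold 20%). A planned display of protein sequences was not carried out. Alternatives were scaling, pseudocount, filter, separation and leaving out each sample. Some genes and gene pairs are not reported here.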

Additional observations from a re-analysis of the deposited data

How the results depend on the processing

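Scaling moved the balance of calls most. Median-of-ratios scaling, with the filter on its own values, called 1504 genes higher at E15.5 and 1427 in the adult, or 1238 and 1329 also without genes that share at least 20% of their 50-base stretches, an alternative added after seeing the data. Leaving the top 50 and the mitochondrial genes out of the sums called 1243 higher in the adult. A separation of at least 4-fold called 1158 and 314 genes, 13 fatty acid genes in the adult and 6 collagens at E15.5; fewer pass by construction. Leaving out 1 sample called 3043 to 3260 and 758 to 809 genes, where the gap between nearest values can only stay or widen. The counts of replication, imprinted and pair results stayed within 1.5 times under every alternative run. Of the 84 and 88 named genes called in the 2 directions, median-of-ratios scaling kept 63 and 88. The sums without the top genes kept 66 and 88, and the deposited values 84 and 80. Leaving out any 1 sample kept all of them, which the call rule fixes in advance apart from the filter. No paired analysis was possible because the embryos and the adult mice are different animals. With rounded values and unknown depth, the size of a difference is not measurable for genes at 0 to 3 units in a group.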
